A study of Rattus norvegicus with 102 samples.

Results

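Genes linked with cell cycle arrest and cellular senescence were followed through the CA1, CA3 and dentate gyrus (DG) subfields of the rat hippocampus. The 7 genes were chosen by name: Cdkn1a, Cdkn1b, Cdkn1c, Cdkn2a, Cdkn2b, Mdm2 and Lmnb1. Of the 26689 genes measured, 5 rows carried one of these names as their symbol. Cdkn1c was taken from its identifier, ENSRNOG00000020559, which the study's supplementary tables pair with that name, and the row itself has no symbol. No row carried the symbol Cdkn2a, so that gene was not analysed here and 6 genes are described.

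The cyclin-dependent kinases drive cells through the cycle, and small proteins bind and block them. The CIP/KIP inhibitors p21 (Cdkn1a), p27 (Cdkn1b) and p57 (Cdkn1c) act on many cyclin-kinase complexes, while the INK4 inhibitors, among them p15 (Cdkn2b), act on the kinases that start the cycle. Mdm2 is a ubiquitin ligase of the cell's stress response. Lamin B1 (Lmnb1), a fibre of the nuclear lamina, is widely known to decline in senescent cells, and p21 and the INK4 inhibitors are used as senescence markers in ageing tissue. Most cells of the hippocampus are neurons and glia that no longer divide, and p27 is also known for its part in the maturation of oligodendrocytes, the myelin-forming glia.

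The samples were male Fischer 344 rats, for which the labels name no transgene or drug: 10 young rats of 5 to 6 months, and 24 aged rats of 17 to 22 months. The aged rats had been sorted by a water maze probe trial into 12 aged-unimpaired (AU) and 12 aged-impaired (AI) animals. RNA from each dissected subfield was selected by poly-A tail and sequenced on the Ion Proton platform, giving 1 library per rat and subfield. The question asked of each gene was whether its level differed between aged and young rats, and between AI and AU rats, in each subfield.

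Values are normalized counts, that is, reads of a gene divided by a size factor of its library. Libraries held between 4478984 and 21467303 reads assigned to genes, with a median of 9755402. The rats carried identifiers of 2 series, R9 (16 rats) and R1-R2 (18 rats). The study kept its animals at 2 sites, and the labels do not tie an identifier to a site. The dissections were checked with marker genes of each subfield: the score of a library's own subfield was not the highest of the 3 scores in 22 libraries, among them 13 of the 16 CA3 libraries of the R9 series. A group of 6 libraries, 4 of CA1 and 2 of CA3, had fewer detected genes (15153 to 16688) than the other 96 libraries (16972 to 19799). In 2 CA1 libraries, of AU rat R9865 and AI rat R9870, the summed level of 6 choroid plexus markers was 137834 and 171650, and a further AU library, of R9862, held 22061, against a median of 214 over the CA1 libraries. The means of subfields, and the age and impairment differences compared between subfields, were not fitted without these libraries.

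**Figure D1:**
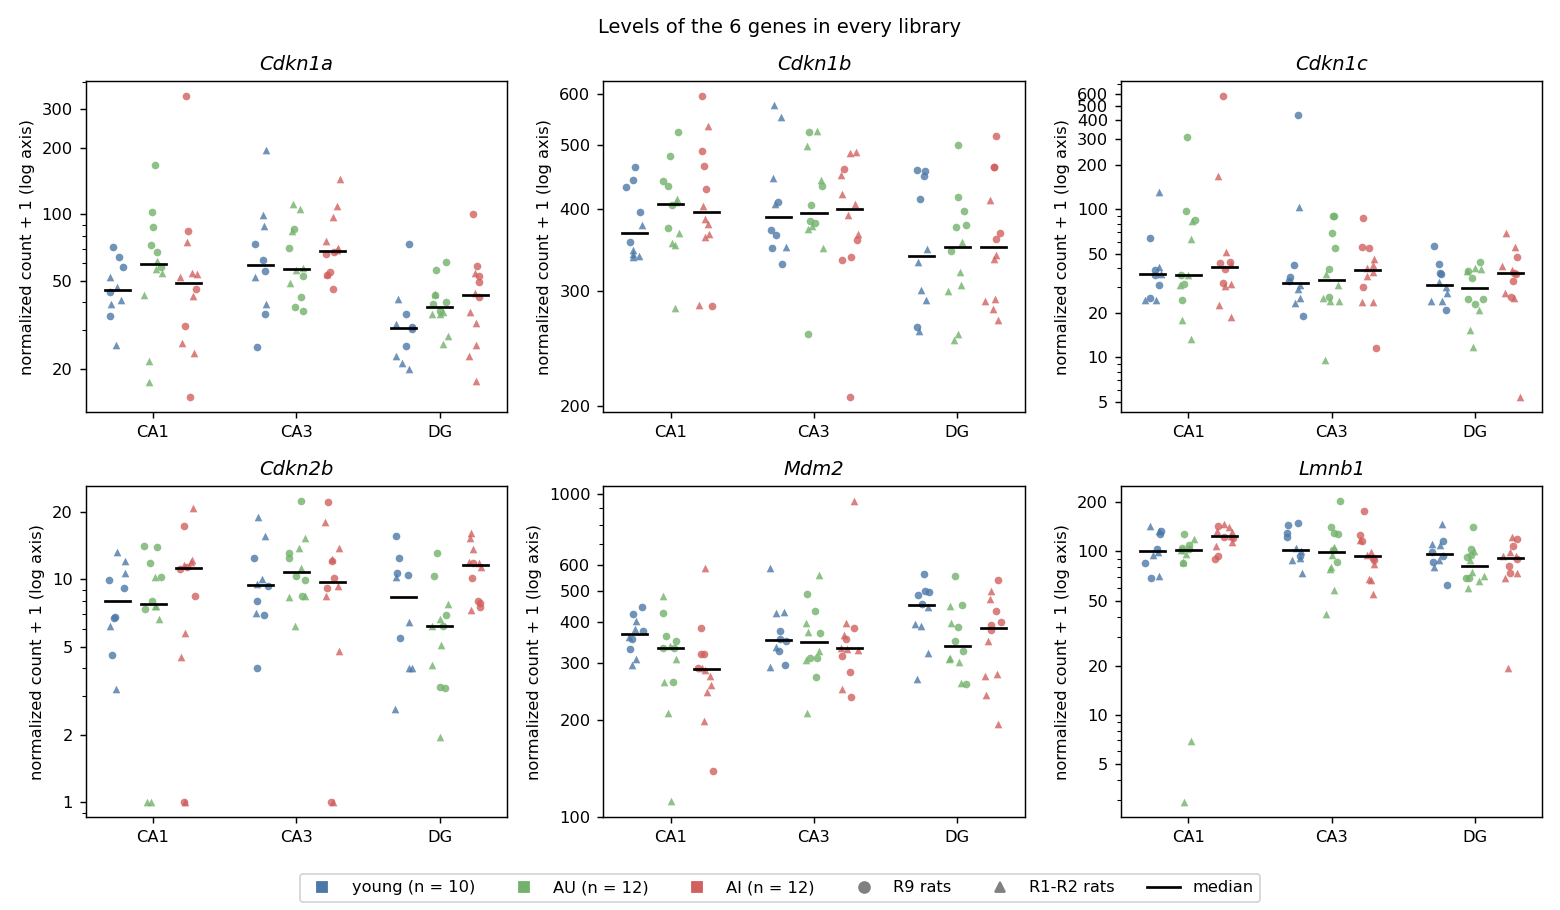
Normalized count plus 1 of each gene on a log axis in every library, by subfield and group, with circles for R9 rats and triangles for R1-R2 rats and a bar at the group median. Young, AU and AI points overlapped for every gene in every subfield. Cdkn2b sat at 0 in 6 libraries, and Lmnb1 at 1.92 and 5.95 in 2 AU libraries of CA1.

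No age difference of these genes passed the test. A gene was called when its adjusted p (limma on log2(normalized count + 1), Benjamini-Hochberg over all genes tested) was under 0.05. None of the 6 genes was called between aged and young rats in CA1, where 0.0183% of 16385 genes were called, in CA3 (0.00607%) or in DG (0.0741%), nor in the mean of each rat's 3 subfields (0.195%). Neither edgeR nor DESeq2 on the recovered reads called a member in CA1, CA3 or DG. The lowest adjusted p of the 6 genes in any of these comparisons was 0.598. At an unadjusted p under 0.05 the count was 1 of 6 in CA1 and in the mean of subfields, Mdm2 in both, and 0 of 6 in CA3 and DG. Over all genes tested the corresponding shares were 3.43% in CA1, 7.9% in the mean, 1.53% in CA3 and 8.33% in DG. Differences below are aged minus young on the log2(normalized count + 1) scale, with a 95% interval from the same fit.

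The level of Cdkn1a, the p21 gene, in CA1 was 24.5, 44.6 and 70.3 normalized counts (lowest, median and highest) in the young rats. It was 16.4, 58.6 and 167 in AU rats and 13.8, 47.9 and 343 in AI rats. Both aged groups thus spanned the whole young range, and their highest libraries were the 2 with choroid plexus RNA. The difference was 0.21 (interval -0.44 to 0.86) and became 0.01 (-0.52 to 0.54) without those 2 libraries and 0.45 (-0.13 to 1.03) without the libraries with the fewest genes. In CA3, Cdkn1a stood at 24.0, 57.8 and 195 in young rats, 35.4, 55.9 and 111 in AU rats and 44.8, 67.1 and 144 in AI rats, and the difference was 0.11 (-0.37 to 0.58). In DG the young levels were 19.0, 29.6 and 72.4, the AU levels 24.996, 36.9 and 59.6 and the AI levels 16.7, 42.2 and 99.5. The DG medians of both aged groups were above the young median while the ranges overlapped, and the difference of 0.36 had an interval from -0.05 to 0.76 (unadjusted p = 0.0802, limma adjusted p = 0.599). Within the identifier series, the DG difference was 0.48 in R9 rats and 0.29 in R1-R2 rats.

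Cdkn1b, the p27 gene, had similar levels in all groups of rats. Group medians ran from 366 to 407 in CA1, from 388 to 398 in CA3 and from 338 to 349 in DG, and no library lay outside 205 to 594. Its age differences were 0.08 (-0.12 to 0.28) in CA1, -0.05 (-0.29 to 0.18) in CA3 and 0.01 (-0.22 to 0.24) in DG. These were the narrowest intervals of the 6 genes in CA1, CA3 and DG.

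Cdkn1c, the p57 gene, had group medians between 28.6 and 39.8 and a few libraries far above them. The 3 highest were 579 (AI rat R9870, CA1), 429 (young rat R9876, CA3) and 306 (AU rat R9865, CA1). Its age differences were 0.29 (-0.54 to 1.13) in CA1, -0.24 (-0.98 to 0.49) in CA3 and -0.09 (-0.60 to 0.42) in DG. Without the 2 libraries rich in choroid plexus RNA the CA1 difference was 0.01 (-0.62 to 0.63), and the CA3 difference was 0.13 without young rat R9876.

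Cdkn2b, which encodes p15, was covered by few reads, between 0 and 32 per library with a median of 8.5, and depth limits what can be said of it. The 6 libraries without a Cdkn2b read were exactly the 6 with the fewest genes detected. All came from aged rats, 4 of CA1 and 2 of CA3. Their totals of 5360495 to 13681801 reads lay inside the range of the other 96 libraries, 4478984 to 21467303. Age differences were -0.16 (-1.07 to 0.74) in CA1, -0.05 (-0.81 to 0.72) in CA3 and 0.11 (-0.50 to 0.72) in DG. Without the 6 libraries, the CA1 and CA3 differences were 0.39 (-0.09 to 0.86) and 0.24 (-0.24 to 0.73). In DG the difference was -0.49 (-1.24 to 0.26) in R9 rats and 0.71 (-0.23 to 1.64) in R1-R2 rats.

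Mdm2 stood at 295, 368 and 444 normalized counts in the CA1 of young rats, at 111, 333 and 481 in AU rats and at 138, 286 and 590 in AI rats. In DG the young levels were 267, 451 and 565, the AU levels 257, 338 and 554 and the AI levels 193, 385 and 539. The aged medians were below the young median in CA1 and DG, and aged rats spread further to both sides in CA1. The difference was -0.33 (-0.66 to -0.00) in CA1, -0.07 (-0.38 to 0.23) in CA3, -0.26 (-0.53 to 0.02) in DG and -0.22 (-0.43 to -0.01) in the mean of subfields, where the unadjusted p of 0.0379 gave an adjusted p of 0.621. It was -0.22 in the R9 rats and -0.21 in the R1-R2 rats for that mean. In CA1 the difference was -0.16 (-0.38 to 0.06) without the libraries with the fewest genes. The 4 of these from CA1 held 111, 138, 197 and 209.7 normalized counts of Mdm2, the lowest values among all CA1 libraries.

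Lmnb1 showed differences below 0 in each subfield, at -0.25 (-1.08 to 0.58) in CA1, -0.17 (-0.54 to 0.20) in CA3 and -0.25 (-0.61 to 0.12) in DG. In DG, the young libraries lay at 61.1, 95.4 and 146, the AU libraries at 58.9, 80.7 and 140 and the AI libraries at 18.3, 90.7 and 122, so the groups overlapped. The CA1 value rested on 2 AU libraries, of R2232 and R2230, at 1.92 and 5.95 normalized counts where the next AU library was at 84.3. Both belong to the 6 with the fewest genes, and without those 6 the CA1 difference was 0.11 (-0.13 to 0.34). The DG difference was 0.04 (-0.33 to 0.42) in R9 rats and -0.51 (-1.09 to 0.08) in R1-R2 rats, and the mean of subfields gave 0.03 and -0.44.

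**Figure D2:**
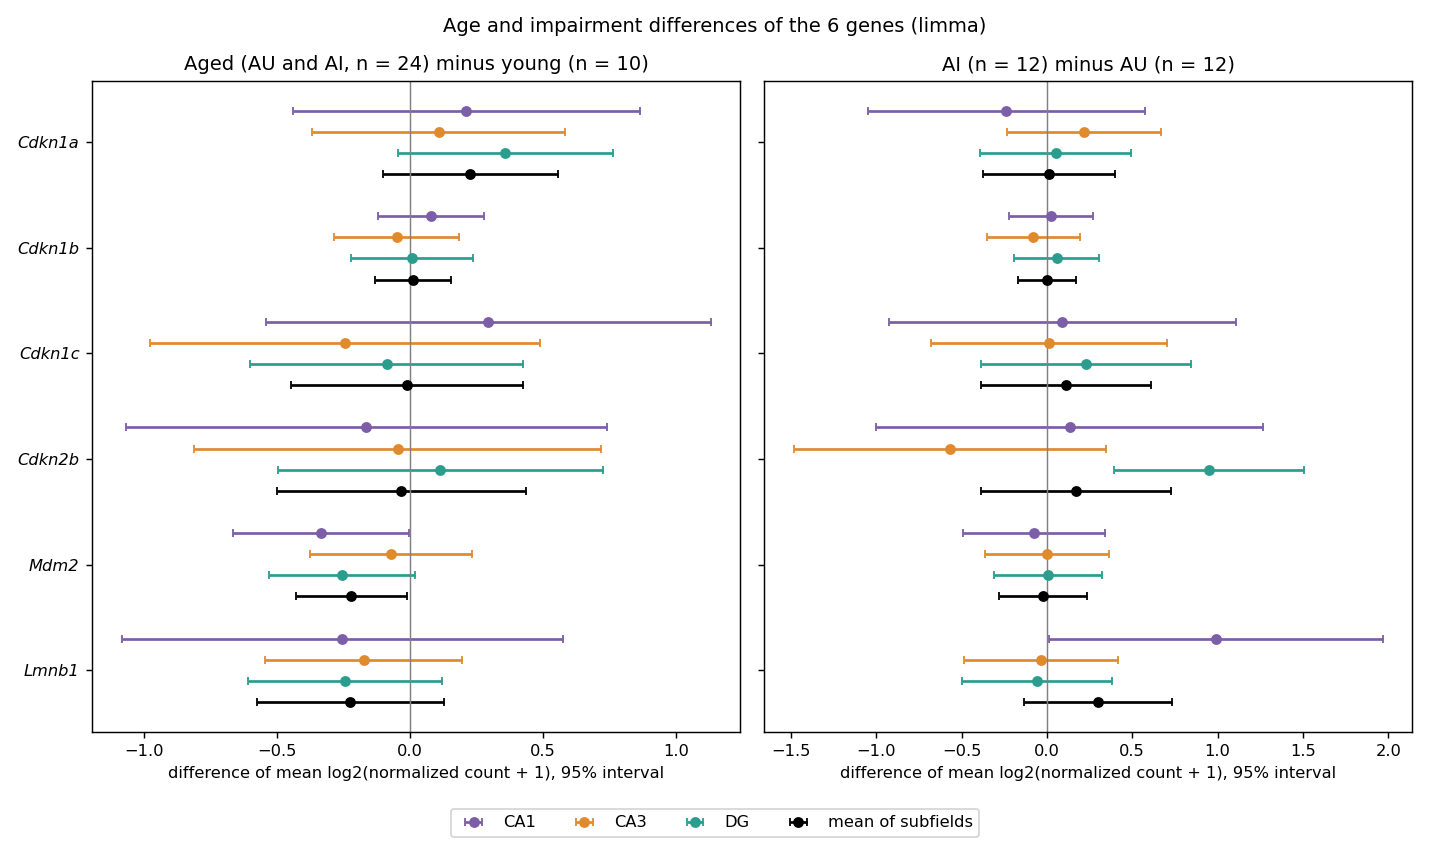
Difference of each gene on the log2(normalized count + 1) scale with its 95% interval from limma, for aged minus young rats (left) and AI minus AU rats (right), in each subfield and in the mean of subfields. Most intervals cross 0, and Cdkn2b in DG (AI minus AU, 0.95) stands furthest from 0 relative to its interval.

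The age difference was also compared between subfields within rats. For each pair of subfields none of the 6 genes was called, and 0% of all genes were called in each of the 3 pairs. The smallest unadjusted p among the 6 genes was 0.18, for Mdm2 between CA1 and CA3, with a difference of -0.26 (-0.65 to 0.13). Among the glial markers, Gfap, the astrocyte filament gene, rose with age in the mean of subfields by 0.51 ± 0.08 (SE, limma adjusted p = 0.00132). Of the 6 astrocyte markers, Gfap among them, 3 lay above 0 in that mean, with a median of 0.04. The microglial receptor gene Trem2 rose by 0.57 ± 0.11 in DG (limma adjusted p = 0.0218). The summed level of 9 microglia markers in DG had a median of 3554 in young, 4494 in AU and 4576 in AI rats, with overlapping ranges. In the mean of subfields 8 of these 9 markers lay above 0.

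Memory impairment likewise gave no called member. Between AI and AU rats 0 of 6 genes were called in CA1, CA3, DG and the mean of subfields, and limma called 0% of all genes there. Neither edgeR nor DESeq2 called any gene for impairment in CA1, CA3 or DG. At an unadjusted p under 0.05, 1 of 6 members passed in CA1 (Lmnb1), 0 in CA3, 1 in DG (Cdkn2b) and 0 in the mean, against 2.08%, 1.61%, 1.77% and 1.22% of all genes. Differences below are AI minus AU.

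Cdkn2b in DG gave the smallest p of the 6 genes. AU rats had 0.97, 5.21 and 12.2 normalized counts of Cdkn2b in DG (lowest, median and highest) and AI rats 6.32, 10.6 and 15.2, which correspond to 1 to 15 and 4 to 13 reads per library. Of the 12 AU libraries, 9 lay below every AI library, and 3 AI libraries lay above every AU library. The young rats, at 1.63, 7.38 and 14.7, overlapped both groups. The mean was 10.1 ± 3.04 (SD, n = 12) in AI and 5.25 ± 3.15 (n = 12) in AU rats, and the log2 difference was 0.95 (0.40 to 1.51). Its unadjusted p of 0.00156 ranked 4 among 16182 genes, and its limma adjusted p was 1. Of all genes 0.0247% had an unadjusted limma p no larger, and 1.77% had one under 0.05. Both shares are smaller than evenly spread p would give. By series the difference was 0.50 (-0.39 to 1.39) in R9 rats and 1.33 (0.53 to 2.13) in R1-R2 rats. The libraries with the fewest genes were not of DG. The DG marker score was not the highest in 4 of the 12 AI libraries of DG and in 1 of the 12 AU libraries, and without such libraries the Cdkn2b difference was 0.9998 (0.33 to 1.67, unadjusted p = 0.00527). In the same comparison 0 of 5 tested DG markers lay above 0 (median -0.32) and 0 of 6 CA1 markers did (-0.24). Above 0 lay 4 of 4 tested choroid plexus markers (0.66), 5 of 6 CA3 markers (0.28) and 3 of 4 ependymal markers (0.35). So did 7 of 7 oligodendrocyte (0.09), 3 of 3 oligodendrocyte precursor (0.12) and 5 of 5 endothelial markers (0.11). Microglia markers had 8 of 9 above 0 (0.05) and astrocyte markers 4 of 6 (0.05). The summed choroid plexus level in DG was 2.92, 94.4 and 702 in AU rats (lowest, median and highest) and 9.76, 281 and 798 in AI rats. Over the 34 DG libraries, Pearson's r of Cdkn2b with 6 marker scores ran from 0.13 (endothelial) to 0.38 (choroid plexus, permutation adjusted p = 0.0561). The part of these markers in the Cdkn2b difference between AI and AU rats was not tested beyond the subset by DG marker score.

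In CA1 the Cdkn2b difference between AI and AU rats was 0.13 (-0.9997 to 1.26) and in CA3 it was -0.57 (-1.48 to 0.35). Both CA3 libraries at 0 were of AI rats, and without the libraries with the fewest genes the CA3 difference was 0.01 (-0.55 to 0.57). The impairment difference of Cdkn2b in CA3 minus that in DG, taken within rats, was -1.52 (-2.40 to -0.64), with an unadjusted p of 0.00158 and a limma adjusted p of 1. For the 3 subfield pairs, 0% of all genes were called and none of the 6 members was. Lmnb1 had an unadjusted p of 0.0347 for CA1 minus CA3 (1.02, 0.08 to 1.97).

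Lmnb1 in CA1 was 1.92, 101 and 127 normalized counts in AU rats and 89.1, 123 and 147 in AI rats. The difference of 0.99 (0.01 to 1.97, unadjusted p = 0.0479, limma adjusted p = 1) depended on the AU libraries of R2232 and R2230. It was 0.59 without rat R2232, and 0.21 (-0.02 to 0.43) without the libraries with the fewest genes. In CA3 and DG the Lmnb1 differences were -0.03 (-0.49 to 0.42) and -0.06 (-0.50 to 0.38).

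For the CIP/KIP inhibitors and Mdm2 every impairment interval within a subfield included 0. Cdkn1a had -0.24 (-1.05 to 0.57) in CA1, 0.22 (-0.23 to 0.67) in CA3 and 0.05 (-0.39 to 0.49) in DG. The CA1 value of Cdkn1a was -0.49 without AI rat R9870, -0.08 without AI rat R9874 and -0.35 (-1.02 to 0.31) without both choroid-rich libraries. Cdkn1b had 0.02 (-0.22 to 0.27), -0.08 (-0.35 to 0.19) and 0.06 (-0.19 to 0.31) in the same order. Cdkn1c had 0.09 (-0.93 to 1.11), 0.01 (-0.68 to 0.70) and 0.23 (-0.39 to 0.85). Its CA1 value was -0.23 without rat R9870, 0.34 without AU rat R9865 and 0.01 (-0.74 to 0.77) without both libraries. Mdm2 had -0.08 (-0.49 to 0.34), -0.00 (-0.37 to 0.36) and 0.01 (-0.31 to 0.32).

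AU and AI rats were also set against the young rats separately, in comparisons that share the same young libraries. None of the 6 genes was called for AU rats in CA1 (0% of all genes called), CA3 (0%) or DG (0.0124%), or for AI rats in CA1 (0%), CA3 (0%) or DG (0.0556%). Cdkn2b in DG was -0.36 (-0.98 to 0.26) for AU minus young and 0.59 (-0.03 to 1.21) for AI minus young.

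Some members were called between CA1 or CA3 and DG, while none was called between groups of rats. This was not particular to the members, since at most 0.195% of all genes were called for age and 0% for impairment. The subfield fit also used the libraries of all subfields together, while age and impairment were fitted within a subfield or on values per rat. Over all 34 rats limma called 0 of 6 genes between CA1 and CA3 (15.0% of all genes), 4 between CA1 and DG (28.5%) and 2 between CA3 and DG (28.9%). The 2 of CA3 and DG were Cdkn1a and Cdkn1b. Cdkn1a stood at 13.8, 51.9 and 343 in CA1, at 24.0, 63.0 and 195 in CA3 and at 16.7, 35.02 and 99.5 in DG, so that DG had the lowest median while all 3 ranges overlapped. Cdkn1a was higher in CA3 than in DG by 0.82 (0.48 to 1.15, limma adjusted p = 6.15e-05) and higher in CA1 than in DG by 0.46 (0.13 to 0.80, limma adjusted p = 0.0291). CA1 and CA3, the neighbours in that order, differed by -0.36 (-0.69 to -0.02), which did not pass (limma adjusted p = 0.152). The bulk libraries cannot tell fewer cells of a type from less RNA per cell.

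The CA1 libraries held 282, 390 and 594 normalized counts of Cdkn1b (lowest, median and highest), the CA3 libraries 205, 397 and 575, and the DG libraries 251, 345 and 515. It was higher than in DG by 0.18 (0.04 to 0.31, limma adjusted p = 0.0474) in CA1 and by 0.18 (0.05 to 0.32, limma adjusted p = 0.0351) in CA3. Mdm2, the ubiquitin ligase gene, was lower in CA1 than in DG by a log2 difference of -0.27 (-0.47 to -0.07, limma adjusted p = 0.0362). Cdkn1c was higher in CA1 than in DG by 0.57 (0.12 to 1.03), just inside the threshold at a limma adjusted p of 0.0497. Neither Cdkn2b nor Lmnb1 was called in any pair.

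All 4 calls between CA1 and DG were lost without the 2 CA1 libraries rich in choroid plexus RNA, where the differences were 0.32 for Cdkn1a (limma adjusted p = 0.11), 0.15 for Cdkn1b (0.0983), 0.37 for Cdkn1c (0.181) and -0.26 for Mdm2 (0.0558). Mdm2 and Cdkn1c also lost this call without the libraries with the fewest genes (adjusted p = 0.195 and 0.0746). Without those libraries, Lmnb1 was called between CA1 and DG (0.32, adjusted p = 0.0121) and Cdkn2b between CA3 and DG (0.48, adjusted p = 0.0147). The higher Cdkn1a and Cdkn1b of CA3 against DG were called in each of these subsets, and also without the libraries whose own subfield score was not the highest (1.13 and 0.26, adjusted p = 9.1e-06 and 0.0126). For Cdkn1b this call was lost with TMM scaling (adjusted p = 0.0663) and with edgeR on the recovered reads (0.057). Cdkn1a was also called lower in CA1 than in CA3 without the choroid-rich libraries (-0.50, adjusted p = 0.0144) and with the libraries whose own score was highest (-0.55, 0.0392).

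The order of the subfields depended on the identifier series. In R1-R2 rats, mean Cdkn1a was 42.7 ± 15.7 (SD, n = 18) in CA1, 85.7 ± 38.9 in CA3 and 31.0 ± 9.88 in DG, while in R9 rats it was 83.3 ± 77.6 (n = 16), 53.1 ± 16.4 and 47.4 ± 18.9. The Cdkn1a difference between CA3 and DG was 1.38 (1.01 to 1.76) in R1-R2 rats and 0.18 (-0.31 to 0.67) in R9 rats. For Cdkn1b it was 0.51 (0.36 to 0.66) in R1-R2 rats and -0.18 (-0.37 to 0.01) in R9 rats. The series difference itself was tested on within-rat differences (limma, R9 minus R1-R2). Between CA3 and DG it was called for Cdkn1a (-1.20 ± 0.21, SE, adjusted p = 0.000114), Cdkn1b (-0.69 ± 0.11, 4.48e-05) and Mdm2 (-0.53 ± 0.17, 0.0214), where 18.3% of all genes were called. Between CA1 and CA3 it was called for Cdkn1a (1.31 ± 0.31, adjusted p = 0.00309) and Cdkn1b (0.51 ± 0.11, 0.000986), where 13.8% were called, and between CA1 and DG for 0 of the 6 members (5.59%). Most R9 CA3 libraries also went against their subfield markers, and the part of this in the series difference was not tested.

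**Figure D3:**
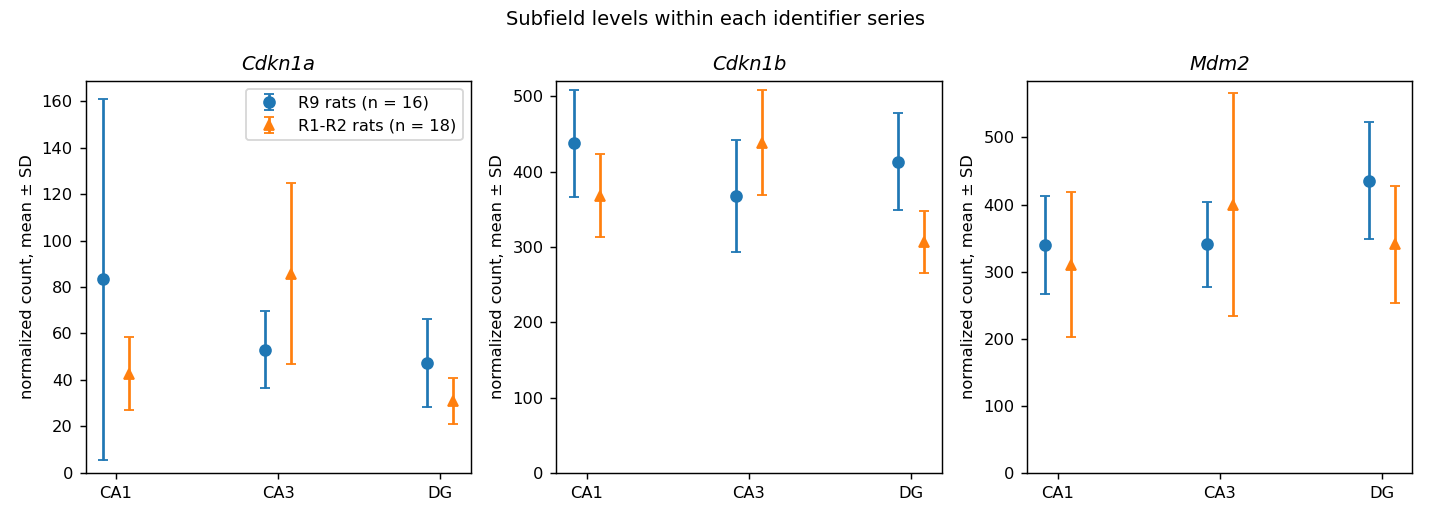
Mean normalized count with SD of Cdkn1a, Cdkn1b and Mdm2 in CA1, CA3 and DG, shown separately for the 16 R9 rats (circles) and the 18 R1-R2 rats (triangles). In the R1-R2 rats CA3 has the highest mean of all 3 genes, and in the R9 rats it does not.

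Several members moved with the marker genes of particular cell types from library to library. Each member was compared with 6 marker scores in each subfield over the 34 rats, 108 relations in all, a score being the mean centred log2 level of a list's markers. The clearest was that of Cdkn1b with the 7 oligodendrocyte markers, which include the myelin genes Mbp and Mog. Pearson's r was 0.85 in DG (Spearman's rho 0.88), 0.80 in CA3 (rho 0.80) and 0.71 in CA1 (rho 0.73), each with a permutation p of 1e-05 for r, the smallest the permutations can give, and an adjusted p of 0.000216. The rho values had adjusted p of 0.00036 by permutation. The permutations shuffled all 34 rats across identifier series and groups, so shifts between the series can enter these and the following permutation p. Without the 2 rats farthest from the median score, r was 0.89, 0.70 and 0.71. Taken within the identifier series, r was 0.71 in R9 and 0.59 in R1-R2 rats in DG, 0.74 and 0.76 in CA3, and 0.59 and 0.62 in CA1. The summed level of these markers had a median of 104451 in CA1, 132787 in CA3 and 69604 in DG, the same order of DG below CA1 and CA3 as Cdkn1b. How far the subfield difference of Cdkn1b rests on oligodendrocyte content was not tested. Cdkn1a also moved with the oligodendrocyte markers in CA3 and DG. In CA3 r was 0.63 (rho 0.58, permutation adjusted p = 0.000972 and 0.00461), 0.55 without the 2 farthest rats, 0.51 within R9 and 0.48 within R1-R2 rats. In DG it was 0.62 (rho 0.54, permutation adjusted p = 0.00081 and 0.00785), 0.55 without the 2 farthest rats, 0.54 within R9 and 0.14 within R1-R2 rats.

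Cdkn1a and Cdkn1c moved with choroid plexus markers in CA1. For Cdkn1a, r was 0.72 (rho 0.61, permutation adjusted p = 0.000216 for r and 0.00201 for rho) and 0.51 without the 2 farthest rats. For Cdkn1c, r was 0.75 (rho 0.52, adjusted p = 0.000309 and 0.0113 by permutation) and 0.52 without the 2 farthest rats. Within the series these were 0.76 in R9 and 0.40 in R1-R2 rats for Cdkn1a, and 0.91 and 0.54 for Cdkn1c. The relation was not confined to CA1. For Cdkn1a r was 0.39 in CA3 and 0.56 in DG (permutation adjusted p = 0.0557 and 0.00331). For Cdkn1c it was 0.54 in CA3 and 0.26 in DG (permutation adjusted p = 0.00741 and 0.198). The ranges of the summed choroid plexus level were wide in each CA1 group, with 13.4 to 1965 among young rats, 0 to 137834 among AU rats and 1.87 to 171650 among AI rats, so the 2 highest libraries were both of aged rats. Cdkn1a also moved with the 4 measured ependymal markers, genes of the ciliated cells lining the ventricles, with r of 0.61 in CA1, 0.64 in CA3 and 0.57 in DG (permutation adjusted p = 0.00108, 0.00096 and 0.00249; rho 0.62, 0.62 and 0.48). Without the 2 farthest rats r was 0.66, 0.61 and 0.49, and in DG it was 0.41 within R9 and 0.03 within R1-R2 rats. Further relations had a permutation adjusted p under 0.05, and not all are given. Above 0, they included Cdkn1b with ependymal markers (0.72, 0.000216) and Cdkn1c with astrocyte markers in DG (0.65, 0.000309). Cdkn2b with microglia markers in CA1 was another (0.60, 0.00207). Below 0, they included Cdkn1b with astrocyte markers in CA3 (-0.57, 0.00331) and Mdm2 with endothelial markers in DG (-0.52, 0.00665).

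**Figure D4:**
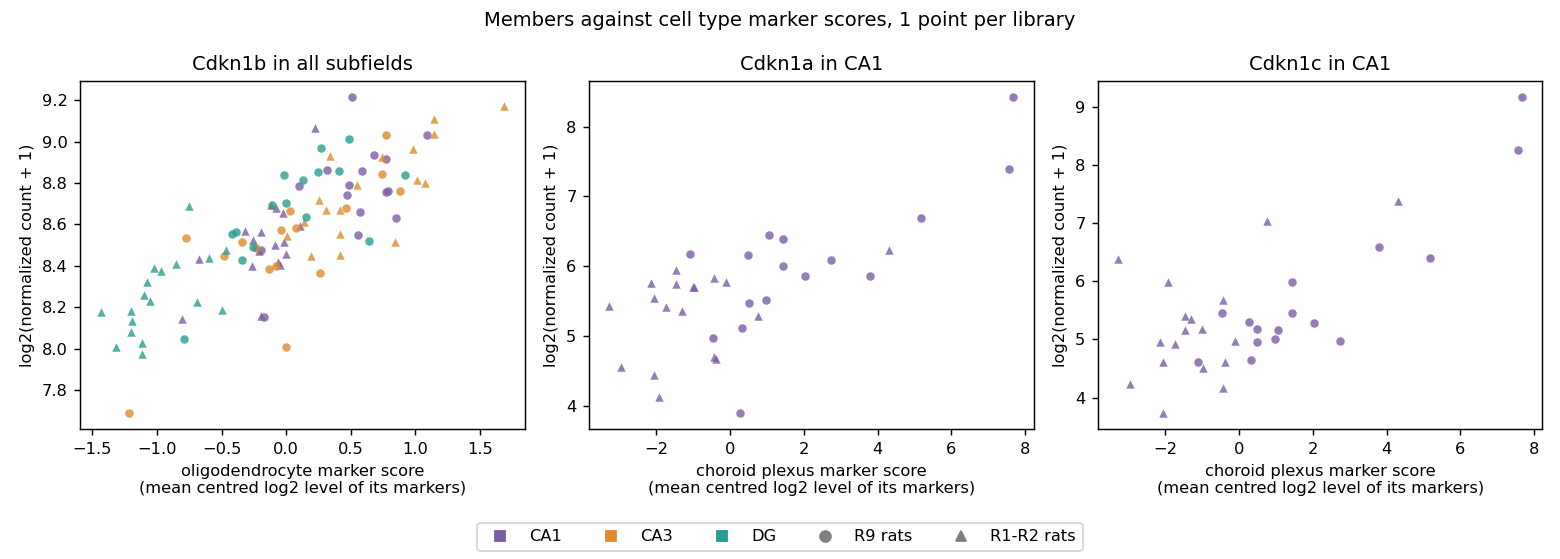
Level of Cdkn1b against the oligodendrocyte marker score in every library, and of Cdkn1a and Cdkn1c against the choroid plexus marker score in the 34 CA1 libraries, on log2 scales with 1 point per library. Cdkn1b climbs with the score in all 3 subfields, and the 2 right-hand points of the Cdkn1a and Cdkn1c panels are rats R9865 and R9870.

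The genes whose pattern was most like each member were taken over every library after the mean of each subfield and group was removed. These are descriptions, and libraries of 1 rat, depth and dissection are shared among the points. For Cdkn1b they were Jam3 (r = 0.81), Mog (0.81) and Tmem88b (0.80), of which Mog encodes a myelin protein and is itself among the 7 oligodendrocyte markers. For Cdkn1a they were Atp11a (0.77), Rgs3 (0.71) and Ttyh2 (0.71), and for Cdkn1c Slc13a4 (0.75), Col8a1 (0.72) and Nt5dc2 (0.71), of which Col8a1 encodes a collagen chain. Mdm2 was most like Ncoa4 (0.88), Dync1li2 (0.88) and Sgcb (0.87). Lmnb1 was most like Ankrd10 (0.82), RGD1560436 (0.81) and Ocln (0.81), with lower values in R9 rats (0.49, 0.59 and 0.47) than in R1-R2 rats (0.86, 0.85 and 0.87), the series that holds both low Lmnb1 libraries. For Cdkn2b the 3 genes were Tirap (0.69), Sec31b (0.68) and Slc41a3 (0.68).

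The wider arrest and senescence programme was followed through pathway lists. Of 117 other genes on 7 pathway lists, between 91 and 96 were tested per comparison, and 0 were called for age or impairment in CA1, CA3, DG or the mean of subfields. At an unadjusted p under 0.05 there were 4 for age in CA1 (4.3% of those tested), 0 in CA3 (0%), 3 in DG (3.3%) and 4 in the mean (4.3%), and for impairment 6 (6.25%), 0 (0%), 4 (4.35%) and 2 (2.17%). The shares of all genes tested were 3.43%, 1.53%, 8.33% and 7.9% for age and 2.08%, 1.61%, 1.77% and 1.22% for impairment.

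By role, the 19 cyclin, kinase, Rb and E2F genes had median age differences of -0.09 in CA1, -0.07 in CA3 and -0.04 in DG, against -0.03, -0.03 and -0.00 for all genes. The 8 lamina and envelope genes had 0.03, -0.02 and 0.03. The 8 to 9 proliferation genes had -0.10, -0.05 and -0.03, and the 2 to 3 other CDK inhibitors -0.15, -0.12 and -0.17.

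The secretory genes linked with senescence, cytokines, proteases and growth factor binding proteins, were 33 in the table, of which 18 to 23 were high enough to test. Their median age differences were 0.03 in CA1, -0.11 in CA3 and 0.07 in DG, and their median impairment differences 0.16, 0.04 and 0.02. Of the genes at an unadjusted p under 0.01, those given here were chosen after their values were seen. For age, these were the growth factor gene Tgfb1 in CA1 (0.47, interval 0.20 to 0.73, unadjusted p = 0.000982, limma adjusted p = 0.894) and the adhesion molecule gene Icam1 in DG (0.34, 0.09 to 0.59, limma adjusted p = 0.586). For impairment, these were the insulin-like growth factor binding protein genes Igfbp5 (0.35, 0.13 to 0.57) and Igfbp6 (1.07, 0.28 to 1.87) in CA1, each with a limma adjusted p of 1. In the mean of subfields Icam1 stood at 0.32 for age. The DNA repair gene Xpc stood at -0.25 for age in DG, with a limma adjusted p of 0.586.

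**Figure D5:**
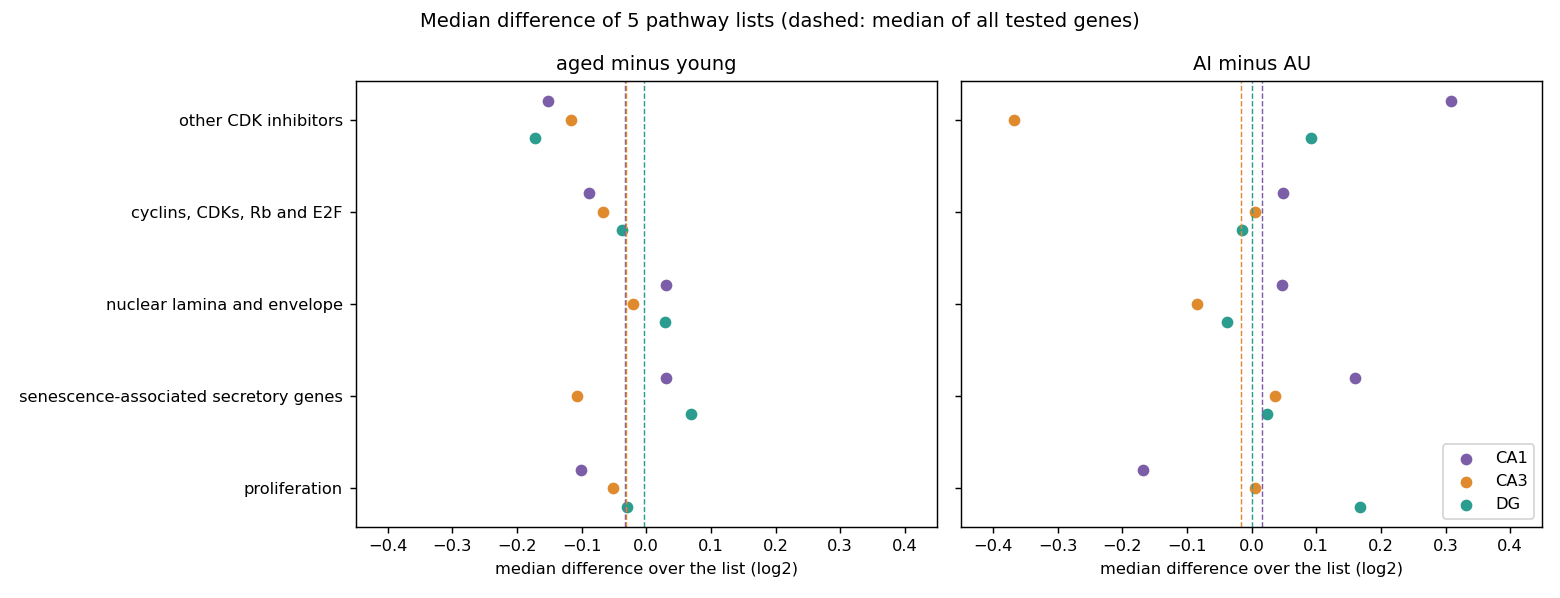
Median log2 difference of 5 pathway lists for aged minus young (left) and AI minus AU rats (right), 1 point per subfield, with a dashed line at the median of all genes tested in that subfield. The points furthest from 0 belong to the list of other CDK inhibitors, which holds only 2 to 3 tested genes.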

How the data were processed

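Poly-A RNA of 3 hippocampal subfields of 34 rats gave 1 library per rat and subfield. The authors aligned the Ion Proton reads to the rat genome rn5 with TopHat2 and Bowtie2 and counted them per gene with featureCounts 1.4.4. The deposited values are a signal of normalized counts, reads divided by 1 size factor per library, with DESeq2 1.10.1 named by the authors. Division by the step of each library gave whole reads for 100% of values (tolerance 0.001), so the precision of low values is that of counting. Strand was not given in the sources used here.

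Members and lists were chosen with earlier results of these data known. Groups came from the labels. Differences were fitted with limma 3.58.1 in R 4.3.3 on log2(value + 1), keeping genes whose mean reached 5, two-sided, in each subfield and on means and differences within rats. The fold of low genes is understated on this scale. The study's methods used a count model, and edgeR 4.0.16 and DESeq2 1.42.0 on the recovered reads were alternatives here, beside other pseudocounts, filters, scalings and subsets of libraries. The code was tested on simulated data. Relations with markers used 100000 permutations.

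The genes named were the members, pathway genes called (0), and the 3 genes of highest Pearson r with each member. The marker genes named, and pathway genes at an unadjusted p under 0.01, fall outside that rule and were chosen after their values were seen. Subfields were compared without rat as a block. Libraries of 1 rat come from the same animal and so are paired. Taken over genes for each rat, their deviations from the group means correlated at 0.06 (CA1 and CA3), 0.10 (CA1 and DG) and 0.01 (CA3 and DG) on average. Single rats ran from -0.38 (CA3 and DG) to 0.55 (CA1 and CA3). These values do not measure the pairing of any 1 gene over rats. Some genes and lists are not reported here.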

Additional observations from a re-analysis of the deposited data

Results flagged for a closer look

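Dixon's test was run in 18 sets of young libraries, 6 genes in 3 subfields with 10 rats each. It sets the gap of the highest or lowest library to its neighbour against the range. For normally distributed values chance passes it in about 1 in 20 groups. The values were normalized counts without a log, for which that rate need not hold. The test was passed in 5 sets, each by the highest library. Cdkn1a was 195 in the CA3 of R2221 (next 98.6) and 72.4 in the DG of R9881 (next 40.5). Cdkn1c was 130.2 in the CA1 of R2175 (next 62.5) and 429 in the CA3 of R9876 (next 102.03). Mdm2 was 589 in the CA3 of R1922 (next 429). The CA3 library of R2221 also held a choroid plexus sum of 14152, and that of R9876 one of 1643.

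The subfield differences of 3 genes differed between the identifier series by the limma test of that difference, R9 minus R1-R2. Between CA1 and CA3 the values were 1.31 for Cdkn1a and 0.51 for Cdkn1b. Between CA3 and DG they were -1.20 for Cdkn1a, -0.69 for Cdkn1b and -0.53 for Mdm2.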

How the results depend on the processing

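Library depth limits Cdkn2b most, at a median of 8.5 reads. The subsets without choroid-rich, low-gene or off-marker libraries, the single series for means and differences of subfields, and leaving out rats were chosen after seeing the data. No member was called for age or impairment under any alternative run, nor without any 1 of 34 rats. Without 1 rat, the 4 differences at an unadjusted p under 0.05 ranged from -0.38 to -0.27 (Mdm2, age, CA1), -0.26 to -0.19 (Mdm2, age, mean), 0.59 to 1.09 (Lmnb1, impairment, CA1) and 0.82 to 1.06 (Cdkn2b, impairment, DG). With rat as a block, which respects the pairing of subfields, members called stayed at 0, 4 and 2 (CA1 minus CA3, CA1 minus DG, CA3 minus DG), and the unpaired fit of differences between subfields called 0.

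Members called between CA1 and DG numbered 1 without a filter, 2 with TMM, 1 in either series alone and 0 without the choroid-rich libraries. Between CA3 and DG they numbered 1 with TMM and 1 with edgeR, and between CA1 and CA3 2 in R1-R2 rats, 1 without the choroid-rich libraries and 1 without off-marker libraries. These are counts, and the members called could change where a count did not. In R9 rats alone, the intervals of Cdkn1a and Cdkn1b between CA3 and DG both included 0. Of 849 gene values under alternatives, 68 had the opposite sign to the value reported, and the cause was not tested. A value that rounds to 0.00, reported or under an alternative, was given no direction so no change of sign is counted or listed for it. With a pseudocount of 5, the values of opposite sign were Cdkn2b 0.0063 (age CA1), 0.032 (age CA3), 0.035 (age mean). With the identifier series as a covariate, the values of opposite sign were Cdkn1c 0.0085 (age mean) and Lmnb1 0.021 (impairment CA3). With edgeR, the values of opposite sign were Cdkn1a -0.041 (age CA3), 0.054 (impairment CA1), Cdkn1c 0.036 (age DG), -0.099 (impairment CA3), Cdkn2b 0.18 (age CA1), 0.10 (age CA3), 0.061 (CA1 minus DG) and Lmnb1 0.008 (impairment DG), 0.025 (CA1 minus CA3). With DESeq2, the values of opposite sign were Cdkn1a -0.022 (age CA3), 0.017 (impairment CA1), Cdkn1c 0.065 (age CA3), 0.018 (age DG), -0.15 (impairment CA1), -0.038 (impairment CA3), Cdkn2b 0.065 (age CA1), 0.035 (age CA3), 0.067 (CA1 minus DG) and Lmnb1 0.0067 (impairment DG), 0.021 (CA1 minus CA3). In the R9 rats alone, the values of opposite sign were Cdkn1a -0.035 (impairment mean), 0.34 (CA1 minus CA3), Cdkn1b 0.26 (CA1 minus CA3), -0.18 (CA3 minus DG), Cdkn1c 0.17 (age mean), -0.52 (impairment CA3), -0.081 (impairment mean), Cdkn2b 0.30 (age CA1), 0.36 (age CA3), -0.49 (age DG), 0.058 (age mean), -0.57 (impairment CA1), -0.25 (impairment mean), 0.014 (CA1 minus DG) and Lmnb1 0.11 (age CA1), 0.044 (age DG), 0.032 (age mean), -0.009 (impairment mean). In the R1-R2 rats alone, the values of opposite sign were Cdkn1a -0.037 (age CA3), 0.19 (impairment CA1), -0.11 (impairment DG), Cdkn1b 0.018 (impairment CA3), Cdkn1c -0.17 (age CA1), 0.019 (age DG), Lmnb1 0.15 (impairment CA3), -0.046 (CA1 minus DG), -0.013 (CA3 minus DG) and Mdm2 0.15 (impairment CA1), -0.088 (impairment DG), 0.069 (impairment mean), 0.19 (CA3 minus DG). Without the 2 choroid-rich CA1 libraries, the values of opposite sign were Cdkn1b -0.013 (impairment CA1). Without the 6 libraries with fewest genes, the values of opposite sign were Cdkn2b 0.39 (age CA1), 0.24 (age CA3), 0.0096 (impairment CA3), 0.28 (CA1 minus DG) and Lmnb1 0.11 (age CA1), 0.13 (CA1 minus CA3). Without libraries whose own marker score is not highest, the values of opposite sign were Cdkn1a -0.095 (age CA3), -0.068 (impairment DG), Lmnb1 0.17 (impairment CA3), 0.029 (CA1 minus CA3) and Mdm2 -0.034 (impairment DG).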
